A study of Mus musculus with 9 samples.

Results

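Gene expression in the pancreas of mouse embryos heterozygous for Blinc1 was compared with that of wild-type embryos, using 3 libraries titled as heterozygotes and 3 titled as wild type, 6 of the 9 libraries of the series. Each library was made from total RNA of whole pancreas dissected at e15.5. Both groups had the same mixed background of c57bl/6 and 129sv, and they differed by label only in genotype, Blinc1+/- against Blinc1+/+. The remaining 3 libraries, labelled Blinc1-/- and called knockouts here, are given beside single results and entered no test unless said. How the Blinc1 allele was made is not given in the sources used here. Nor do the labels tie each library to its own embryo or litter, and the p-values therefore describe the spread among these libraries, which may be technical in part. Of 23235 gene symbols, 13163 reached 1 FPKM (the deposited level, scaled to transcript length and to library size) in at least 3 of the 6 libraries and were tested. A difference is always the heterozygote minus the wild-type mean of log2(FPKM + 1), a scale on which changes at low levels look smaller than they are, and it is given with its standard error (SE). The test was limma's moderated test with Benjamini-Hochberg adjustment over all 13163 genes, and a gene is called below when its adjusted p was under 0.05.

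Blinc1 is a long noncoding RNA gene that lies beside Nkx2-2, which encodes a homeodomain transcription factor of the endocrine pancreas. At this stage the pancreas is passing through its main wave of differentiation: trunk epithelium gives rise to Neurog3-positive endocrine progenitors, which become hormone-producing islet cells, while tip cells turn into acinar cells that store digestive enzymes. The epithelium grows inside mesenchyme, and vessels, nerves, macrophages and blood are dissected with it. By label the heterozygote carries 1 altered allele, so the comparison asks whether expression shifts when 1 copy of the locus is altered.

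The Blinc1 transcript itself was not analysed here. Nkx2-2as, the noncoding transcript that overlaps Nkx2-2 on the other strand, was at 0.142 FPKM or less in these libraries, too low to check the genotype labels. The depth implied by the deposited confidence bounds was 20206143 to 24204452 fragments per library, and rank correlations between the 6 libraries over all tested genes were 0.9845 to 0.9918. Xist, transcribed from the inactive X, stood at 38.2 and 40.3 FPKM in wild-type replicate 3 and heterozygote replicate 3 and at 0.0608 or less in the other 4, so each group held 1 female and 2 male samples. The 3 knockouts had Xist at 35, 37.3 and 40.2 FPKM. All 3 were thus female samples, and knockout values given beside the groups differ in sex as well. Genes that define the tissue were high in all 6 libraries, with the acinar enzyme gene Cpa1 at 7898 to 9947 FPKM and the insulin gene Ins2 at 1463 to 3007.

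A single heterozygote library stood apart from the other 5 at several pancreas genes. Nkx2-2 (mm9 chromosome 2, 147003282 to 147012138) measured 15.2, 21.7 and 25.5 FPKM in wild types 1, 2 and 3, in that order. The heterozygotes had 6.37, 19 and 13.4 and the knockouts 24.9, 6.08 and 5.48. At this gene the library labelled heterozygote 1 lay next to knockouts 2 and 3, and the library labelled knockout 1 lay among the wild types. The same split was seen at Pla2g1b, which encodes pancreatic phospholipase A2: wild types were at 5.54, 2.35 and 3.09, heterozygotes at 122, 8.29 and 5.66 and knockouts at 1.81, 162 and 129.7. It was also seen at Nkx6-2, a homeodomain factor gene, with wild types at 8.79, 1.64 and 2.86, heterozygotes at 40.1, 12.3 and 9.66 and knockouts at 1.87, 33.7 and 37.5. Heterozygotes 2 and 3 lay above every wild type at both genes, by a smaller margin. At Cyp2c70, a cytochrome P450 gene, heterozygote 1 was at 0.159 FPKM against 9.41 and 11.1 in the other heterozygotes, 8.42 to 12.2 in wild type and 0.669 to 1.06 in all 3 knockouts. Cyp2c70, and the knockout values given beside these genes, were looked at after the values were known. The labels could not be checked against Blinc1 itself, so groups are kept as labelled, and results that rest on heterozygote 1 are given with and without it.

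**Figure D1:**
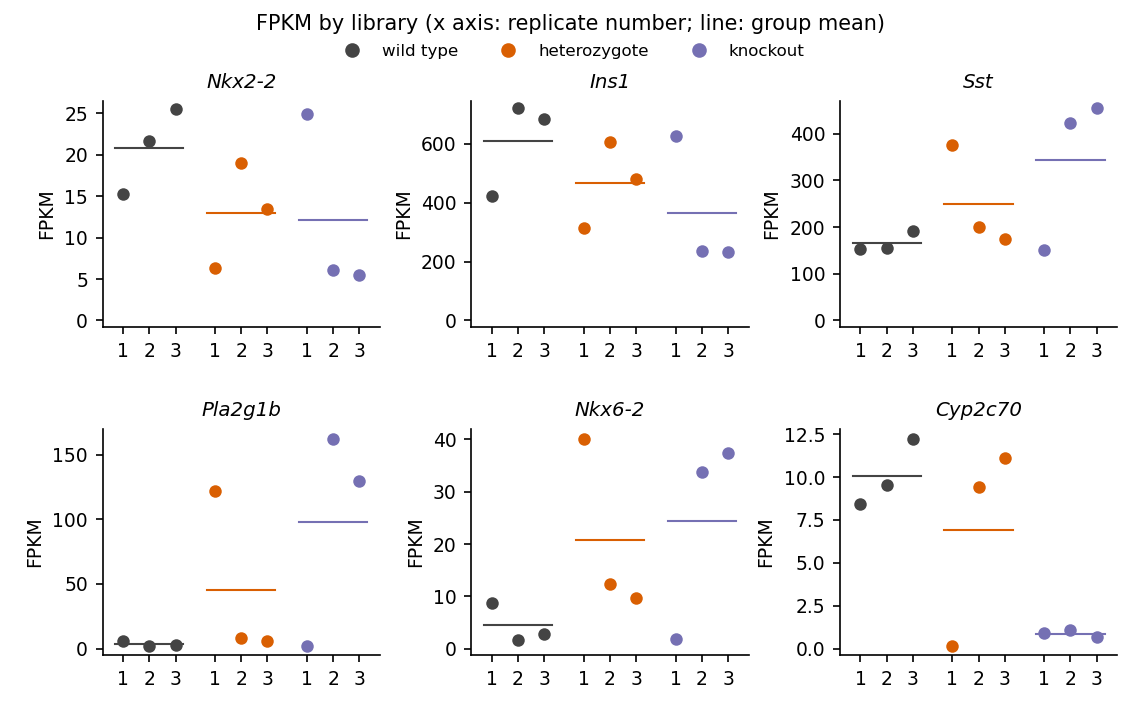
FPKM of Nkx2-2, Ins1, Sst, Pla2g1b, Nkx6-2 and Cyp2c70 in each of the 9 libraries, with replicate number on the x axis, FPKM from 0 on the y axis and a line at each group mean. Heterozygote replicate 1 lies near knockouts 2 and 3 in all 6 panels, while heterozygotes 2 and 3 lie within or close to the wild-type range in most of them.

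The transcriptome as a whole differed little between the groups. By limma 0 genes were called higher in heterozygotes (0% of those tested) and 6 were called lower (0.0456%). An unadjusted p under 0.05 was reached by 711 genes, 5.4% of those tested, 208 higher (1.58%) and 503 lower (3.82%). The groups did not overlap for 1391 genes (10.6%), of which 465 were higher (3.53%) and 926 lower (7.03%). Both totals are close to what random order would give. With 3 against 3 libraries the groups then fail to overlap with a probability of 0.1, and an unadjusted p falls under 0.05 with a probability of 0.05. A gene that separates the groups below is therefore described and not counted as a result by itself. The balance between the directions depended on the scaling of the libraries: with each library scaled to the same median, non-overlapping genes numbered 915 higher and 563 lower, and with trimmed mean scaling 800 and 656. The unadjusted counts were 430 higher and 309 lower with median scaling, and 366 and 355 with trimmed mean scaling, so whether more genes were lower or higher changed with the scaling. Under both scalings 6 genes were called lower and 0 higher. The median difference over all genes was -0.02, with 57% of genes lower and 43% higher by sign alone.

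The size of the differences was bounded by a narrow spread. Over all tested genes the median SD of log2(FPKM + 1) was 0.094 in each group, and the SD was larger in heterozygotes for 50.6% of genes. The median absolute difference was 0.067, and 98.9% of genes differed by less than 0.5 on the log2 scale. Only 25 genes differed by at least 1, 9 of them higher and 16 lower in heterozygotes. The 95% confidence interval of a typical gene, not adjusted for the number of genes, reached 0.2 to each side of its difference. Smaller shifts of a typical gene were therefore not detectable with 3 libraries per group. Larger shifts could also be missed after adjustment over all genes: Eif3j, at 0.70 (SE 0.10), was not called (limma adjusted p = 0.16).

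**Figure D2:**
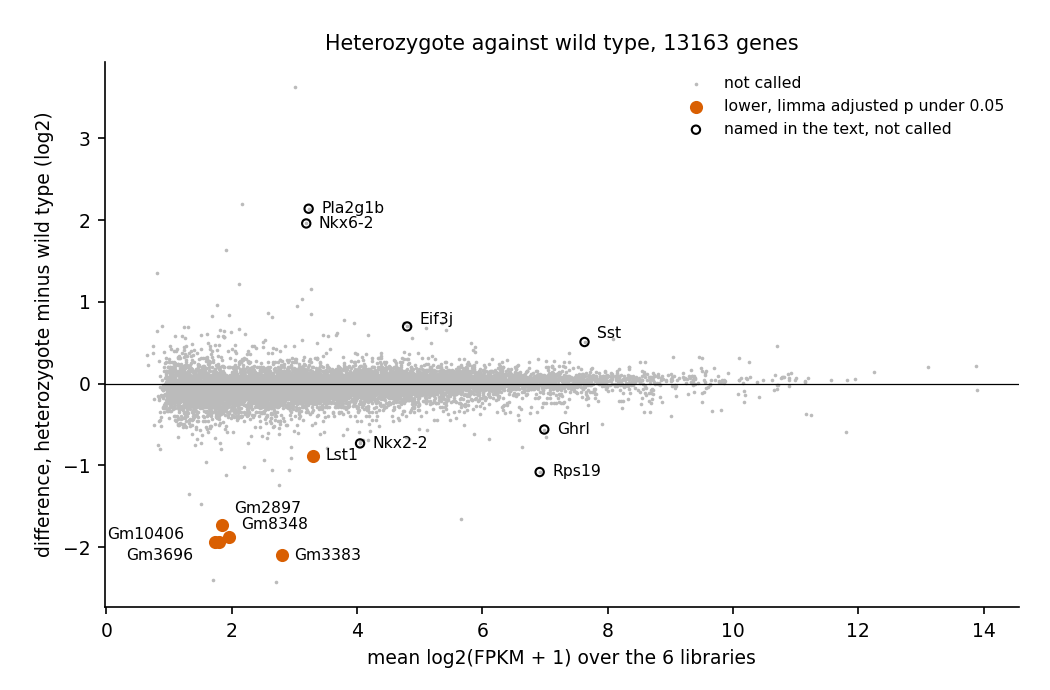
Difference between heterozygote and wild type (log2, y axis) against the mean log2(FPKM + 1) over the 6 libraries (x axis), 1 point per tested gene. The 6 called genes (filled) all lie below 0, and the open circles mark genes described in the text that were not called.

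Of the 6 called genes, 5 belong to a family of predicted genes at the start of chromosome 14, where Gm3383, Gm8348, Gm10406, Gm2897 and Gm3696 were lower by 1.73 to 2.10 on the log2 scale. They are given here under their predicted-gene names, and the coding sequences of these 5 copies are nearly the same where they align. The 100 bases shown here for each called gene start at the same place of the aligned coding sequence (GENCODE vM1, mm9). They are printed to show how few bases tell the copies apart, and capitals mark a base that differs from the most common one of the 5.
Gm2897: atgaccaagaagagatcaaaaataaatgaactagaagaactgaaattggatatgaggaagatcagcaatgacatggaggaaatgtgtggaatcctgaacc
Gm8348: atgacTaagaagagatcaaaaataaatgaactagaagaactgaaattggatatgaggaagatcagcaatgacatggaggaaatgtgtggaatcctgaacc
Gm3383: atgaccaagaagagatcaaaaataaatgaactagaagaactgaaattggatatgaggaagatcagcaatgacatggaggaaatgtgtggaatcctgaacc
Gm10406: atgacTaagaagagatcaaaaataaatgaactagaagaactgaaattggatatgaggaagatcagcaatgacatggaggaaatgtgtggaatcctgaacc
Gm3696: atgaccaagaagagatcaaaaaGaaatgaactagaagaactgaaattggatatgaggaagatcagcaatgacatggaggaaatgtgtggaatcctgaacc

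These windows lie in coding exons at chr14:3070131-3070230 (Gm2897, plus strand), chr14:3533826-3533925 (Gm8348, plus strand), chr14:5547471-5547570 (Gm3383, minus strand), chr14:7844284-7844383 (Gm10406, minus strand) and chr14:7922331-7922430 (Gm3696, minus strand). The windows of Gm2897 and Gm3383 are identical and occur 7 times on chromosome 14 of mm9, those of Gm8348 and Gm10406 are identical and occur 16 times, and that of Gm3696 occurs once. Only 2 of the 100 positions differ among the 5. Over the bases that could be aligned between their coding sequences, which differ in length, the 10 pairs of called genes were 96.7% to 99.8% identical. Reads were mapped with at most 10 hits allowed, per the labels, so how fragments were divided among the copies is uncertain. The family is therefore also given as a sum over its tested genes. The sum does not remove the uncertainty, because a window that occurs 16 times has more matches than the 10 hits allowed.

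The members of the family were all lower, but they do not count as separate results. Of the 50-base stretches in the transcripts of the 5 called genes, 74.3% (Gm10406) to 87.9% (Gm3696) also occur in other family genes. Gm3383 (chromosome 14, 5541920 to 5551837 for the first of its 4 loci) was at 13.3, 11.4 and 15.7 FPKM in wild type and at 2.37, 2.4 and 2.32 in heterozygotes. The heterozygote libraries were almost equal, and the lowest wild type lay far above them (difference -2.10, SE 0.11, limma adjusted p = 0.0014). Gm8348 (3518338 to 3539580, first of 3 loci) was at 6.26, 5.17 and 8.25 in wild type and at 1.13, 1.01 and 0.94 in heterozygotes (-1.88, SE 0.15, limma adjusted p = 0.014). Gm10406 (7838629 to 7859963) was at 5.17, 4.27 and 7.45 against 0.716, 0.602 and 0.818 (-1.93, SE 0.17, limma adjusted p = 0.02). For both genes every heterozygote was below every wild type. Gm2897 (3049286 to 3077025) was at 4.61, 4.91 and 7.33 against 0.967, 1.1 and 0.846 (-1.73, SE 0.16), and Gm3696 (7915539 to 7937971) at 5.55, 4.52 and 7.81 against 1.11, 0.77 and 0.535 (-1.93, SE 0.19). Wild-type replicate 3 was the highest library at each of the 5.

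Between 3049286 and 7937971 on chromosome 14, 9 predicted genes were tested, and all 9 were lower in heterozygotes without overlap, by 0.80 to 2.40. Because the copies share sequence, the 9 are not treated as independent results, but Gm8050 shares much less than the rest. Of its 50-base stretches 16.6% occur in other family genes, against 74.3% (Gm10406) to 89.1% (Gm3002) for the rest. Its aligned coding sequence was 92.3% to 94.8% identical to theirs. The 4 that were not called were Gm8050 (-2.40, SE 0.34, limma adjusted p = 0.18), Gm5796 (-1.35), Gm3264 (-1.12) and Gm3002 (-0.80), and they were named after their values were seen except Gm8050. The summed FPKM of the 9 was 48.9, 42.1 and 68.4 in wild type and 10.4, 8.76 and 7.47 in heterozygotes, so the heterozygote sum was 16.7% of the wild-type sum. The other 11 tested predicted genes of the chromosome, from 10716609 on, differed by -0.16 to 0.18, and their heterozygote sum was 96.1% of the wild-type sum. The boundary between these sets was drawn after the values were known.

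The level of the family did not follow the number of altered Blinc1 alleles in the labels. In the knockouts its summed FPKM was 10.5 in the library labelled knockout 1, as low as the heterozygotes, and 38.4 and 49.7 in knockouts 2 and 3, near the wild types. Gm3383 was at 1.86, 10.6 and 12.8 in the 3 knockouts. A fit of all 9 libraries together called 0 of the 5 genes (limma adjusted p = 0.94 for each). Gm3383 was called in 17 of 21 alternative fits, Gm8348 in 12, Gm10406 in 11, Gm2897 in 10 and Gm3696 in 6. All 5 stayed lower by at least 1.51 in each fit in which they were tested, and Gm3383 was called whichever of the 6 libraries was left out. The number of genes called lower was 1 without wild type 1, heterozygote 1 or heterozygote 3, 3 without wild type 2, 4 without wild type 3 and 8 without heterozygote 2. Without wild type 1, 1 gene was called higher, Gm6644, named after its values were seen.

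**Figure D3:**
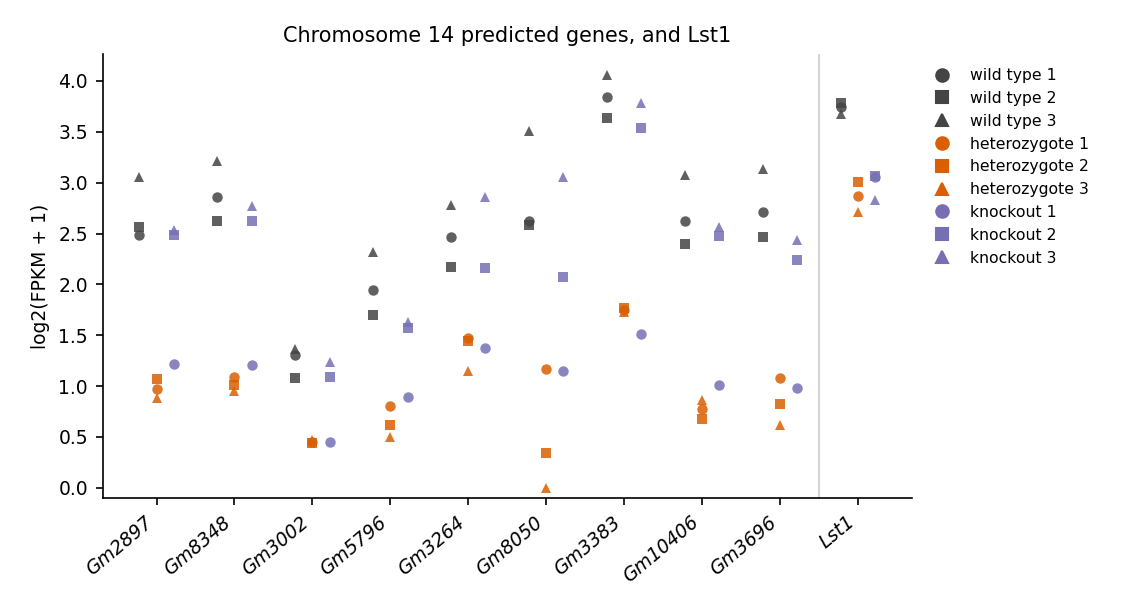
log2(FPKM + 1) of the 9 predicted genes at the start of chromosome 14, in order along it, and of Lst1 (right of the line), in all 9 libraries. At every chromosome 14 gene the 3 heterozygotes and knockout replicate 1 lie below the 3 wild types, and at Lst1 all 6 heterozygote and knockout libraries do.

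The sixth called gene was Lst1 (chromosome 17, 35322040 to 35325385), named for its leukocyte-specific transcript and expressed in myeloid cells. It was at 12.4, 12.8 and 11.8 FPKM in wild type and at 6.32, 7.02 and 5.54 in heterozygotes (difference -0.88, SE 0.09, limma adjusted p = 0.028). The groups were far apart and narrow, but each value rests on 27 to 71 implied fragments. The knockouts were at 7.29, 7.35 and 6.13, also below every wild type. Lst1 was called in 8 of 21 alternative fits, with limma adjusted p from 0.017 to 0.86, the highest with voom on implied fragments, and its difference ranged from -0.98 to -0.80. When single libraries were left out it was called only without heterozygote 2, and missed the threshold without any other 1 of the 6 (limma adjusted p of 0.094 to 0.21).

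Other leukocyte genes did not show the same split. Among 19 tested genes of macrophages and leukocytes 17 had lower means in heterozygotes, with a median difference of -0.22 against -0.02 over all genes, but by limma Lst1 alone was called. Csf1r, the receptor of macrophage growth factor, was at 14.9, 16.8 and 12.3 in wild type and at 11.1, 9.12 and 13.2 in heterozygotes (-0.37, SE 0.14). C1qa, the complement gene with the highest level of the list, was at 144, 156 and 169 against 139, 185 and 177 (0.09, SE 0.11). Genes next to Lst1, looked at after its values were seen, overlapped between groups: Aif1 was at 7.51, 7.94 and 5.06 against 6.2, 4.41 and 6, and Ltb, the gene of lymphotoxin beta, at 12.5, 12.3 and 7.58 against 12.2, 2.37 and 11.2. Heterozygote 2 was low at Ltb and at further lymphoid genes, with Cd7 at 0.902 FPKM against 4.63 to 9.52 in the other 5 libraries, and its median over the leukocyte list was -0.53 relative to the wild-type mean, against -0.13 and -0.05 in heterozygotes 1 and 3. Without heterozygote 2 the median difference of the list was -0.05. In whole tissue, fewer cells of a type and less RNA per cell cannot be told apart, here and for every cell type below.

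No gene was called higher in heterozygotes. The smallest p-values of that direction belonged to Rprl3 and Eif3j (limma adjusted p = 0.16 for both). Rprl3 rests on at most 3 implied fragments per library, at 0, 0 and 0.338 FPKM in wild type and 2.42, 1.51 and 1.6 in heterozygotes. Eif3j, which encodes a subunit of translation initiation factor 3 (chromosome 2, 121854359 to 121879365), was at 22.9, 20.3 and 19.6 in wild type and at 31, 39.3 and 33.7 in heterozygotes, from 14.5 to 29.4 implied fragments (0.70, SE 0.10). A near-identical copy of this gene makes its level uncertain. Its knockout values were 13.7, 44.7 and 45.9, so knockout 1 was again on the wild-type side. Hist1h2bb, a histone gene (0.61), Gbgt1, a glycosyltransferase gene (0.46), Arntl2, a clock factor gene (0.41), and Tmem126a, a mitochondrial membrane protein gene (0.23), came next with limma adjusted p = 0.88. Tmem126a showed how small a shift could separate the groups, at 47.4, 44.3 and 45.8 in wild type and 53.2, 53.5 and 55 in heterozygotes. The largest non-overlapping differences upward were those of Snora43 (3.63, at most 4 implied fragments), Pla2g1b (2.14, SE 0.98), Nkx6-2 (1.96, SE 0.60), Rprl3 and Hist1h2bh (0.87). Without heterozygote 1 the difference of Pla2g1b was 0.82, and that of Eif3j was 0.77.

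Close to Nkx2-2, which lies beside Blinc1, few genes differed. Within 1 Mb of Nkx2-2, 6 genes were tested, 2 higher and 4 lower, with 0 called and 0 under an unadjusted p of 0.05. Foxa2, a forkhead factor gene of the endoderm, was at 29.3, 29.1 and 32 in wild type and at 32.5, 32.2 and 32.2 in heterozygotes, above every wild type by a margin well inside their own spread (0.10, SE 0.06). Xrn2, encoding an exoribonuclease, was at 38.8, 36 and 41.6 against 36.3, 38 and 35.5 (-0.08, SE 0.07). Farther off on chromosome 2, the share of genes under an unadjusted p of 0.05 was 7.95% for the chromosome and 3.31% to 8.1% over the other autosomes. In steps of 20 Mb it was 12.9% of 101 genes from 100 to 120 Mb, 14.2% of 148 genes from 120 to 140 Mb and 7.43% of 148 genes in the step that holds Nkx2-2. The interval from 100 to 140 Mb, read after the values were seen, had 13.7% of 249 genes under that unadjusted p. It holds Eif3j and also Gchfr, encoding a regulator of tetrahydrobiopterin synthesis. Gchfr was at 6.32, 10.5 and 7.76 in wild type and 2.74, 2.47 and 5.31 in heterozygotes (-1.06, SE 0.25, limma adjusted p = 0.88). The same interval holds Scg5, a granule protein gene, at 15.9, 22.7 and 29 in wild type and 16.5, 9.12 and 15.1 in heterozygotes. In knockouts 1, 2 and 3 Gchfr was at 9.77, 4.26 and 2.85 and Scg5 at 32.9, 7.77 and 5.31. At both genes knockout 1 lay within or above the wild-type range and the other 2 knockouts below it.

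Islet hormone genes had lower means in heterozygotes, but their groups overlapped. Of 8 hormone genes tested 6 were lower and 2 higher, with a median difference of -0.34, 0 called by limma and 0 under an unadjusted p of 0.05. Ins1 was at 422, 722 and 683 FPKM in wild type and at 315, 606 and 481 in heterozygotes (-0.39, SE 0.27). Ins2, the insulin gene with the higher level, was at 2049.8, 3007 and 2918 against 1463, 2514 and 2276 (-0.37, SE 0.22). In both genes heterozygote 1 was the lowest library, and heterozygote 2 lay inside the wild-type range. Gcg, the glucagon gene of alpha cells, was at 801, 899 and 1039 against 604, 891 and 704 (-0.33, SE 0.15). Ghrl, the ghrelin gene of epsilon cells, was at 116, 141 and 220.0 against 77, 127 and 114 (-0.56, SE 0.25). Iapp, co-secreted with insulin, was at 383, 515 and 495 against 259, 456 and 395 (-0.35, SE 0.21). Somatostatin (Sst), the delta cell hormone, went the other way, at 152, 155 and 191 against 375, 201 and 174 (0.51, SE 0.26), and so did Ppy, the pancreatic polypeptide gene (0.11, SE 0.15). All 7 had limma adjusted p of 0.88 or 0.94.

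Much of the differences of Ins1, Ins2, Iapp and Sst, and less of those of Gcg and Ghrl, rested on heterozygote 1. Its median over the 8 hormone genes lay 0.71 below the wild-type mean, whereas heterozygote 2 was at 0.01 and heterozygote 3 at -0.26, and wild type itself ranged from -0.22 to 0.20. Without heterozygote 1 the median difference of the list was -0.12 and the differences were -0.13 for Ins1, -0.13 for Ins2, -0.12 for Iapp, -0.20 for Gcg, -0.35 for Ghrl and 0.18 for Sst. Nkx2-2 differed by -0.73 (SE 0.34, limma adjusted p = 0.88) with all libraries and by -0.33 without heterozygote 1, where 13.4 and 19 FPKM remained against 15.2 to 25.5. The 95% interval of the Nkx2-2 difference ran from -1.53 to 0.07.

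Transcription factors of the islet lineage overlapped between the groups as well. Of 21 tested 16 were lower, with a median difference of -0.09 and 0 called by limma. Neurog3, the switch gene of endocrine progenitors, was at 52.4, 55.8 and 73.4 in wild type and at 48.3, 65.3 and 60.6 in heterozygotes (-0.05, SE 0.15). Pax6 was at 10.3, 11.2 and 12.5 against 9, 12.2 and 8.58 (-0.19, SE 0.13). Pdx1, needed for pancreas formation and beta cells, was at 34.5, 29.8 and 35.6 against 38.7, 37.3 and 31 (0.09, SE 0.10). The intervals were narrow enough to bound these genes: the 95% interval was -0.40 to 0.29 for Neurog3 and -0.14 to 0.32 for Pdx1.

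Further endocrine lists also had mostly lower means. Beta cell genes were lower in 11 of 14 cases (median -0.22) and genes of alpha, delta, epsilon and PP cells in 13 of 15 (-0.18). Granule and prohormone genes were lower in 16 of 22 (-0.15) and endocrine progenitor genes in 14 of 19 (-0.04). In each list 0 genes were called by limma. The heterozygotes were not alike. Relative to the wild-type mean, the beta cell medians were -0.30, 0.03 and -0.17 in heterozygotes 1, 2 and 3, with wild type at -0.15 to 0.10. The heterozygote medians were -0.25, 0.06 and -0.20 for the alpha, delta, epsilon and PP list. They were -0.14, -0.09 and -0.25 for granules and -0.16, 0.00 and -0.11 for progenitors. Dlk1, an imprinted gene of beta cells and mesenchyme, separated the groups, at 423, 480.4 and 451 in wild type and 368, 378 and 399 in heterozygotes (-0.24, SE 0.06). Pou3f4, an alpha cell factor gene, did too, at 1.72, 1.68 and 1.87 against 0.971, 0.992 and 1.2 (-0.42, SE 0.11), as did the peptide gene Cck, at 7.48, 7.72 and 9.81 against 6.41, 5.51 and 6.21 (-0.40, SE 0.11). Pam, which amidates peptide hormones, was at 43.1, 43.1 and 41.1 against 38.6, 35 and 38.3 (-0.18, SE 0.06). For these 4 genes limma's adjusted p was 0.88. Genes lower without overlap numbered 2 of 14 in the beta cell list and 2 of 15 in the alpha, delta, epsilon and PP list. They numbered 2 of 19 for progenitors and 1 of 22 for granules, against 7.03% of all genes. Slc2a2, the glucose transporter of beta cells, overlapped (6.55, 9.57 and 10.7 against 5.18, 7.61 and 5.22), and Cpe, a prohormone-processing enzyme, hardly differed (0.01, SE 0.07).

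Acinar genes leaned upward without being called. Of 27 tested genes of secretory products 16 had higher and 11 lower means, with a median difference of 0.10, and 4 had an unadjusted p under 0.05, all of them higher (1.58% over all genes). Cela1, the gene of an elastase, was at 1530.3, 1366 and 1364 FPKM in wild type and at 2316, 1949 and 1660.0 in heterozygotes (0.46, SE 0.12). Try5, a trypsin gene, was at 676, 693 and 592 against 850.3, 882 and 717 (0.32, SE 0.10), and Cpa1, a carboxypeptidase gene, at 8604, 8226 and 7898 against 9462, 9947 and 9155 (0.21, SE 0.09). At all 3 genes every heterozygote lay above every wild type (limma adjusted p = 0.88). Trypsin, elastase and amylase genes have close copies among which reads could be split. Amy2a5, the amylase gene with the highest level of the list, was at 14029.5, 18081 and 15187 against 13119.6, 15385 and 16034 (-0.08, SE 0.13). Ctrb1, a chymotrypsinogen gene, and Pnliprp1, a lipase-related gene, could not be tested, because their estimates failed for excess of data in heterozygotes 2 and 3 and in heterozygote 2.

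Libraries of 1 group did not take the same place in this list. The median of the secretory products relative to wild type was -0.25 in heterozygote 1 and 0.27 and 0.14 in heterozygotes 2 and 3, and without heterozygote 1 the median difference was 0.21. Without wild type 1 or heterozygote 2 it was -0.03 or -0.04. Among acinar transcription factor genes 8 of 10 were higher (median 0.10). Ptf1a, the master factor of acinar cells, was at 74.4, 67.6 and 85.3 against 92.2, 101 and 83.9 (0.29, SE 0.10), while Gata6 was lower without overlap, at 26.5, 28.7 and 26.4 against 23.2, 22.1 and 24.1 (-0.22, SE 0.06). Gata6 is also expressed outside acinar cells.

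Duct and trunk genes and genes of the Notch pathway were close to evenly split. Duct and trunk genes were higher in 8 and lower in 9 of 17 cases (median -0.01), and Notch genes in 9 and 9 of 18 (median 0.00 after rounding), each with 0 under an unadjusted p of 0.05. The Notch split moved with the scaling, to 13 higher and 5 lower with median scaling and 11 and 7 with trimmed mean scaling. Sox9, the factor of trunk progenitors, was at 24.2, 24 and 26 in wild type and 22.9, 28.8 and 26.3 in heterozygotes (0.07, SE 0.09). Spp1, osteopontin of ducts, was at 414, 415 and 468 against 387, 439.6 and 403 (-0.08, SE 0.07). Hes6, a basic helix-loop-helix gene linked to Notch signalling, was at 52.2, 44.8 and 54.1 against 55.2, 50 and 52.7 (0.07, SE 0.08).

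Genes of the mesenchyme and its matrix had mostly lower means in heterozygotes. Of 24 mesenchyme genes 20 were lower (median -0.21), and of 31 collagen chains 27 were lower (median -0.21), with 0 called by limma in either list. Wt1, a factor of mesothelium and mesenchyme, was at 8.66, 9.67 and 7.46 in wild type and 5.6, 6.54 and 7.41 in heterozygotes (-0.35, SE 0.12). Nkx3-2, which marks splanchnic mesenchyme, was at 1.93, 1.35 and 1.58 against 0.776, 1.27 and 0.938 (-0.40, SE 0.14). Both genes separated the groups by a small gap, and 4 of 24 mesenchyme genes were lower without overlap, against 7.03% of all genes. Tcf21, a mesenchymal factor gene, overlapped (25.8, 23.7 and 19.3 against 18.3, 15.6 and 23.1), as did the fibrillar collagen gene Col3a1 (508, 573 and 437 against 415, 426 and 458). The lists moved with single libraries: wild type 2 was the highest library, at 0.14 for mesenchyme and 0.18 for collagens relative to the wild-type mean, and wild type 3 lay at -0.17 and -0.20, inside the heterozygote range of -0.29 to -0.12 for mesenchyme and -0.28 to -0.13 for collagens. Without wild type 2 the median difference of each list was -0.11.

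Signals exchanged with the mesenchyme had the same direction. Of 23 genes of the Hedgehog, Fgf and Wnt pathways 20 were lower (median -0.12), 0 of them called. Wnt5a, a noncanonical Wnt ligand, was at 3.67, 4.66 and 3.37 against 2.52, 2.67 and 3.24 (-0.36, SE 0.13), without overlap. Smo, the Hedgehog signal transducer, did not share the shift, at 44.5, 43.9 and 43.8 against 46.7, 38.4 and 44.7 (-0.03, SE 0.08). Endothelial genes were lower in 15 of 17 cases (median -0.11). Esam, an endothelial adhesion molecule gene, was at 27.4, 30.1 and 27.4 against 24.7, 24.9 and 24.3 (-0.19, SE 0.06). Of 16 Hox genes tested 12 were lower (median -0.08), and Hoxd8 separated the groups, at 3.63, 4.25 and 3.84 against 2.98, 2.36 and 2.69 (-0.42, SE 0.10). Lower without overlap were 2 of 23 pathway genes, 2 of 17 endothelial genes and 1 of 16 Hox genes, against 7.03% of all genes.

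Imprinted genes, expressed from 1 parental copy and many of them tied to fetal growth, were lower in 18 of 22 cases (median -0.13). An unadjusted p under 0.05 was reached by 7 of the lower genes and 1 higher gene, against 3.82% and 1.58% of all genes. All 3 heterozygotes lay close together on this list, at -0.15, -0.13 and -0.14 relative to the wild-type mean, with wild type at -0.05 to 0.06. Zim1, a zinc finger gene, was at 18.3, 18.7 and 15 against 14.5, 13.5 and 12.6 (-0.33, SE 0.10). Cdkn1c, which encodes an inhibitor of the cell cycle, was at 397, 422 and 375 against 358, 352 and 349.5 (-0.17, SE 0.06). H19, the imprinted gene with the highest level, overlapped at 3051, 2798 and 3082 against 3260.2, 3055 and 2868 (0.04, SE 0.08). With the libraries scaled to the same median, 2 lower genes of the list had an unadjusted p under 0.05, and the count of lower genes was again 18.

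**Figure D4:**
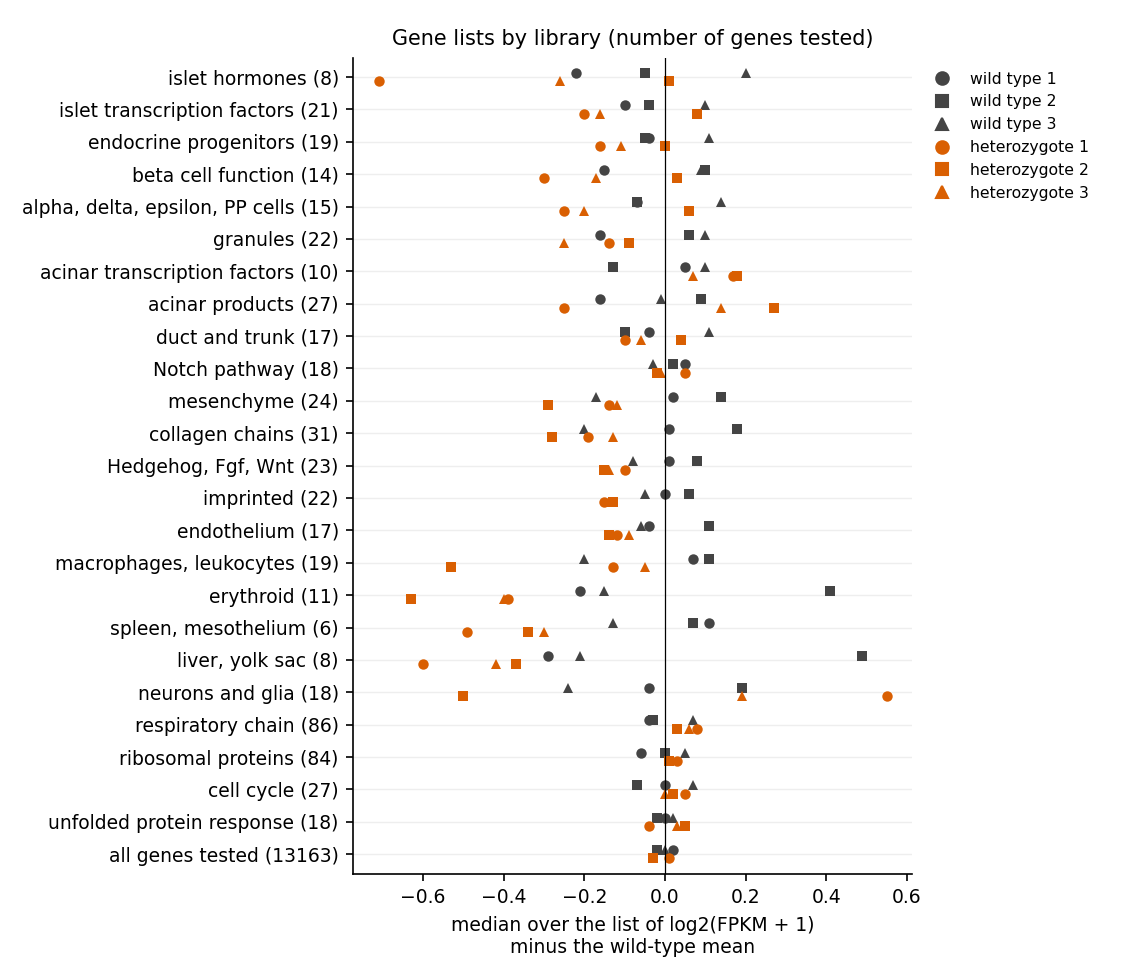
Median over each gene list of log2(FPKM + 1) relative to the wild-type mean (x axis), for the 6 libraries, with the number of genes tested in brackets. Heterozygotes lie left of 0 for mesenchyme, collagens, imprinted genes, endothelium, erythroid and liver genes, while neuron, hormone and acinar product lists are spread within the heterozygote group.

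Genes of neurons split the heterozygotes rather than the genotypes. Over 18 genes of neurons and glia the median relative to wild type was 0.55 in heterozygote 1, -0.50 in heterozygote 2 and 0.19 in heterozygote 3, with wild types at -0.04, 0.19 and -0.24, and the summed FPKM of the list was 123 to 431 in heterozygotes and 168 to 243 in wild type. In heterozygote 1, 25 genes were at least 2-fold above every other library of the 6 on the FPKM + 1 scale, against 0 to 3 in each of the others. Not all of them are neuronal: Pla2g1b and Nkx6-2 had the largest gaps. Th, tyrosine hydroxylase of catecholamine synthesis, was at 25.3 FPKM in heterozygote 1 and at 1.78 to 7.76 in the other 5, and Tubb3, neuronal tubulin, was at 88.7 against 14.4 to 34.5. Dbh, dopamine beta-hydroxylase, was at 1.05, 5.06 and 0.864 in wild type and 26.3, 0.0387 and 9.32 in heterozygotes. These 3 genes were chosen after their values were seen. The library labelled knockout 1 shared this feature, with Th at 19.6 and Tubb3 at 68.9, while knockouts 2 and 3 had Th at 1.52 and 1.85. Between the groups 10 neuronal genes were higher and 8 lower (median 0.06, and -0.11 without heterozygote 1). S100b, a glial gene, separated the groups downward, at 5.73, 8.51 and 8.36 against 3.26, 5.34 and 5.09 (-0.62, SE 0.19), and Ret, a receptor of enteric neurons, had higher means with overlap (0.32, SE 0.11). Of the 18 genes S100b was the only 1 lower without overlap, against 7.03% of all genes. The part of neuronal RNA in the other differences was not tested.

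Most blood and liver genes tested had lower means in heterozygotes, and both list medians were highest in wild type 2. Of 11 erythroid genes 8 were lower (median -0.46) and of 8 liver and yolk sac genes 7 were lower (median -0.46). Hba-a1, an alpha globin gene with a near-identical copy, was at 3775, 5279 and 4190.2 in wild type and 3757, 1988 and 3281 in heterozygotes (-0.59, SE 0.24). Alas2, the erythroid enzyme of haem synthesis, was at 29.1, 47 and 31.5 against 26.5, 15.3 and 25 (-0.67, SE 0.23). Neither gene overlapped, and neither was called (limma adjusted p = 0.88). Hbb-b2, a beta globin gene named after its values were seen, had a higher mean, at 33.6, 29.3 and 7.69 against 20.6, 129.9 and 14.1 (0.74, SE 0.83). The summed FPKM of the erythroid list overlapped, at 4875, 7690.1 and 5507 in wild type and 5903, 3096 and 4624 in heterozygotes. Alb, the albumin gene, was at 36.4 FPKM in wild type 2 and at 1.95 to 4.35 in the other 5 libraries. Fgb, the fibrinogen beta gene, did not depend on that library, at 1.83, 1.59 and 1.64 against 0.805, 1.17 and 0.812 (-0.48, SE 0.12). Without wild type 2 the median difference was -0.30 for the erythroid and -0.10 for the liver list. Of 6 genes of spleen and mesothelium 5 were lower (median -0.36), among them Tlx1, a factor of the spleen anlage, at 2.48, 1.82 and 1.94 against 0.869, 1.25 and 1.37 (-0.51, SE 0.14). Only 4 of the gut and stomach genes were tested, and Cdx1 and Cdx2, which define intestinal epithelium, did not reach the level for testing. Whether the share of these tissues in the dissected samples had a part in the differences was not tested.

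Genes of general cell processes moved little. Respiratory chain genes had higher means in 72 of 86 cases, with a median difference of only 0.05. Cox6a1, a subunit of cytochrome c oxidase, was at 671, 677 and 716 FPKM in wild type and 797, 745 and 769 in heterozygotes (0.16, SE 0.06), and Cox8a at 582, 593 and 649 against 703, 665 and 684 (0.17, SE 0.06). Glycolysis and hypoxia genes were higher in 14 of 16 cases (median 0.07), with Ldha at 345, 339.8 and 371 against 384, 341 and 361 (0.04, SE 0.06), but without heterozygote 1 the median was 0.02. Cell cycle genes had a median of 0.02, the unfolded protein response 0.01 and immediate early and heat shock genes 0.02. Calr, a chaperone of the endoplasmic reticulum, was at 1054, 1071 and 1122 against 1089.9, 1116 and 1125.

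Ribosomal protein genes had higher means in 50 of 84 cases (median 0.02). Rps19, a small-subunit protein gene with processed copies elsewhere in the genome, was at 169, 181 and 174 FPKM in wild type and at 55.7, 173 and 57.1 in heterozygotes (-1.08, SE 0.39, limma adjusted p = 0.88). Heterozygotes 1 and 3 were low and heterozygote 2 was level with wild type, and the knockouts were at 159.8, 151 and 173. Rec8, a meiotic cohesin gene read after its values were seen, also set heterozygotes 1 and 3 below wild type and heterozygote 2 above it, at 5.97, 5.4 and 5.79 in wild type and 2.18, 19.4 and 2.59 in heterozygotes. Rpl21, a large-subunit protein gene, was low in heterozygote 1 alone, at 2.79 FPKM against 14.6 to 18.4 in the other 5 libraries (-0.63, SE 0.56). Rpl30 separated the groups with a narrower spread, at 62.5, 60.6 and 71.9 against 55.8, 50.9 and 54.6 (-0.27, SE 0.07). Of the 84 genes, 8 were lower and 5 higher without overlap, against 7.03% and 3.53% of all genes.

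**Figure D5:**
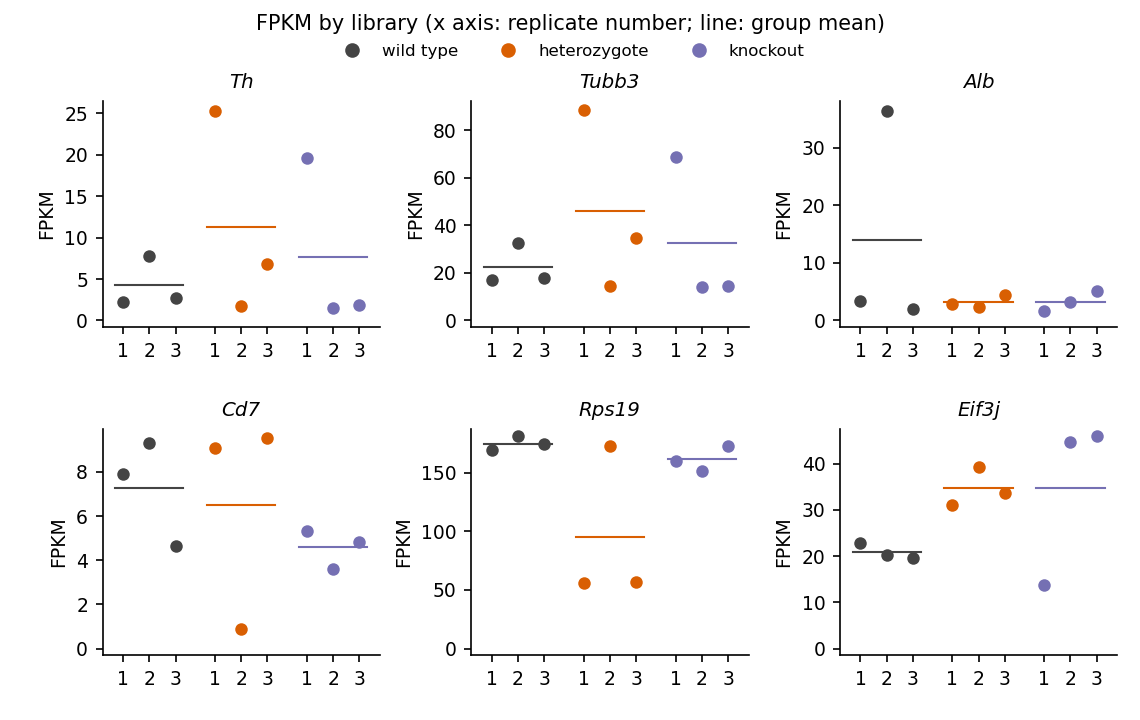
FPKM of Th, Tubb3, Alb, Cd7, Rps19 and Eif3j in the 9 libraries, with replicate number on the x axis, FPKM from 0 on the y axis and a line at each group mean. Th and Tubb3 are high in heterozygote 1 and knockout 1, Alb in wild type 2, Cd7 is low in heterozygote 2, Rps19 is low in heterozygotes 1 and 3, and Eif3j lies higher in all 3 heterozygotes than in wild type.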

How the data were processed

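Whole pancreas RNA (TruSeq kit, HiSeq2000) was aligned by the authors with TopHat 2.0.4 to mm9 (4 mismatches and 10 hits per read at most), per the labels. The submitters' processing notes also list CASAVA 1.8.2, Cufflinks and DESeq. The deposited FPKM, their confidence bounds and a status word were read for each locus, per the file headers. Neither the annotation nor the use of strand is given in the sources used here. FPKM were summed over loci of a symbol (248 symbols had several), and estimates failed for excess data were set missing, which removed 2 of 13165 genes. Fragments per gene were implied from the bounds (whole within 0.05 for 73.5% to 74.44% of genes under 500 fragments).

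Groups and replicate numbers came from sample titles. Genes with at least 1 FPKM in 3 of 6 libraries were tested with limma 3.58.1 in R 4.3.3 on log2(FPKM + 1), two-sided, with an intensity trend, genotype as the only term, 4 residual and 3.70 prior degrees of freedom, and an adjusted p threshold of 0.05. The fit was tested on simulated data. A permutation test of 3 against 3 libraries cannot give a p below 0.1. Of 31 gene lists, 25 were fixed by symbol and the others by name pattern or position. Named genes were core pancreas genes, called genes or the 6 smallest p per direction, 2 smallest p and highest level per list, the 5 largest non-overlapping differences per direction, 3 genes per library and direction with the largest gap, and Xist, Ddx3y and Eif2s3y. Members and lists were chosen with earlier results of these data known. Alternatives were other pseudocounts, filters, scalings, covariates, weights, voom, libraries left out and a fit of all 9. Positions are 1-based on mm9.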

Additional observations from a re-analysis of the deposited data

How the results depend on the processing

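Under the alternatives the 6 genes called lower stayed lower throughout, but the number called changed. It was 1 with no filter on low values, 1 with a mean of at least 5 FPKM (600 genes lower without overlap), 0 with all 9 libraries in 1 fit (smallest limma adjusted p = 0.072) and 0 with voom on implied fragments (smallest 0.078). With males only it was 0 (smallest 0.057), with 1075 genes under an unadjusted p of 0.05, 2342 higher and 2943 lower without overlap, and a Neurog3 difference of 0.05. Median scaling gave 915 higher and 563 lower without overlap, and trimmed mean scaling 800 higher. For settings that called 0, 522 genes (all 9 libraries) and 703 (voom) had an unadjusted p under 0.05. The cause of these changes was not tested, except that males only and libraries left out have fewer samples.

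Same-numbered libraries did not deviate together (correlations of -0.005, -0.195 and 0.187), so the numbers were not taken to pair the samples. With a replicate block the number called lower was 0 (smallest limma adjusted p = 0.051 for Gm3383), with 625 genes under an unadjusted p of 0.05.

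Leaving out each library in turn gave 0 to 1 genes called higher, 1 to 8 called lower, 356 to 1120 under an unadjusted p of 0.05, and 659 to 1456 higher and 1397 to 2196 lower without overlap. Smaller groups fail to overlap more often by order alone, here and with males only. Their counts without overlap are therefore not comparable with those of the main fit. The differences ranged from -0.04 to 0.25 for Ppy, -0.15 to 0.09 for Neurog3 and -0.01 to 0.15 for Sox9. Leaving out heterozygote 1 and wild type 2 together, chosen after seeing the data, gave 1 higher and 3 lower, 383 under an unadjusted p of 0.05, and 1097 higher and 2915 lower without overlap. The differences were then 0.01 for Ins1, -0.11 for Ppy, 0.02 for Neurog3 and -0.04 for Pdx1. Over all alternatives 555 of 622 values of single genes kept their direction and side of the threshold, 58 lost the call and 9 reversed. Most of these values belong to genes that were not called. Only the 6 genes called in the main fit could lose a call. Among them the calls were not stable, from 17 of 21 alternatives for Gm3383 to 6 of the 20 that tested Gm3696. Of 650 list medians 627 moved by less than the spread between libraries.

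Depth limits low genes: Lst1 rests on at most 71 implied fragments per library. FPKM keep no read counts, and reads shared between near-identical copies cannot be traced.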
